A study of Mus musculus with 7 samples.

Results

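The collagen genes of the mouse were followed in neurons and progenitors of the olfactory epithelium, the tissue of the nose that holds the smell receptor cells. The members are the genes whose symbol has the form Col, a number, a and a number, a rule that uses names and no measured value. It finds 44 of the 54532 genes in the deposited tables. RNA sequencing had been done on cells sorted by fluorescence, pooled before RNA extraction. The mature olfactory sensory neurons were from OMP-GFP mice at postnatal days 2, 7 and 16 (P2, P7 and P16, 3 libraries). Intermediate progenitor cells, the dividing precursors of these neurons, came from Neurog1-GFP mice at P3, P7, P9 and P16 (4 libraries). There was 1 library for each age and population, so the ages stand in as replicates. Effects of population and of mouse line cannot be told apart here.

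Collagens are secreted or membrane-bound proteins built from polypeptide chains, called alpha chains, that wind around each other as a triple helix. Fibrillar collagens such as types I, II, III, V and XI form the cable-like fibrils of connective tissue, bone and cartilage. Type IV forms the sheet of basement membranes, type VI forms beaded filaments, and the fibril-associated collagens (FACIT) such as types IX and XVI decorate the surface of fibrils. Multiplexins (types XV and XVIII) sit in basement membranes, and transmembrane collagens such as types XVII and XXV are anchored in the cell surface. A single trimer often combines chains from several genes, for example Col1a1 with Col1a2 or Col4a1 with Col4a2.

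Stretches of sequence before the start site are shown for Col9a2, Col8a1 and Col5a3, and for Col1a2, a chain with one of the steepest age slopes. The first 3 are examples of the chains called lower in mature neurons under every alternative tried. Others, among them Col2a1, Col6a1 and Col16a1, kept that call as well and are not printed. They are taken from RefSeq on build GRCm38.p6, which matched 35 of the 44 members with 38 start sites. Only the longest run outside annotated exons within the 250 bases before each RefSeq start is printed, 5′ to 3′ on the gene's own strand. Capitals mark 4 motifs searched on both strands, with overlapping matches allowed. The first is TATAAA, the core of the element that the TATA-binding protein reads. Another is CCAAT, the element read by the factor NF-Y. The E-box, of the form CANNTG, is the kind of site that proneural factors such as Neurog1 bind. The GC box is GGGCGG, read by Sp1-type factors. A match on the opposite strand stands in capitals as its reverse complement.
Col9a2, chr4:121039316-121039384 (+): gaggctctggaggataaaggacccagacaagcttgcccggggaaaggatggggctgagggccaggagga
Col8a1, chr16:57754738-57754987 (-): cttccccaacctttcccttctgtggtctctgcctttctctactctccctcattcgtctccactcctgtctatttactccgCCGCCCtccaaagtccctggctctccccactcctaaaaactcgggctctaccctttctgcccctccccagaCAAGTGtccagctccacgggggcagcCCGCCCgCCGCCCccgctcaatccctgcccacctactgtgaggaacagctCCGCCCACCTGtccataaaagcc
Col5a3, chr9:20815068-20815317 (-): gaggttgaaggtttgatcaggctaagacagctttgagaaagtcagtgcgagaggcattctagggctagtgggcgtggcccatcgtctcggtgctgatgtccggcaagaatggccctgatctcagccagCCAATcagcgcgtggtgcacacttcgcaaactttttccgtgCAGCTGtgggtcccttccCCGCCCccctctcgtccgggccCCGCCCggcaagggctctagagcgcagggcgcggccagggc
Col1a2, chr6:4505370-4505492 (+): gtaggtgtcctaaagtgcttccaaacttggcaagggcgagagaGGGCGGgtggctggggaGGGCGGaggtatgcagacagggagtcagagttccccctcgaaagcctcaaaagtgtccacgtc
The run of Col9a2 is 69 bases long, ends at the base before the annotated gene and holds none of these letters. The full Col9a2 window of 250 bases, 181 of them in an exon and not printed, holds 1 E-box and 2 GC boxes. That of Col8a1 holds 2 E-boxes and 4 GC boxes, and that of Col5a3 holds 1 CCAAT box, 1 E-box and 2 GC boxes. The run of Col1a2 lies in an intron of a longer annotated transcript and holds 2 GC boxes. The full Col1a2 window, with 127 bases in an exon, also holds 1 CCAAT box. Across all 38 full collagen windows of 250 bases, an E-box was present in 50% (66.2% of 32851 windows of all genes), a GC box in 57.9% (32.7%), a CCAAT box in 34.2% (33.8%) and a TATA box in 13.2% (12.4%). Such letters are a description of the sequence and do not show that a factor binds there.

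The libraries held 24203965 to 25930727 counts on genes. Neurog1, the gene the progenitor line is named for, was at 1.11 to 2.08 CPM (read counts scaled to a common library size, with TMM factors) in mature neurons and at 328 to 825 CPM in progenitors. Omp, the marker of mature neurons, was at 1494 to 2377 CPM in mature neurons and 1663 to 3019 CPM in progenitors, so it did not separate the populations, whereas 9 of 10 listed mature neuron genes were higher in mature neurons and 10 of 10 listed progenitor genes were lower. The mature P16 library stood apart in markers of other cells: summed leukocyte markers were at 110 CPM there against 23.6 and 36 CPM in the other mature libraries and 7.45 to 24.3 CPM in progenitors. Summed erythroid markers were at 292 CPM there against 35.1 and 41.9 CPM at P2 and P7. Bowman gland markers summed to 1620 CPM there against 390 and 287 CPM, and members of that list differed in direction. Bpifb9a (22.8, 16.9 and 193 CPM at P2, P7 and P16) and Bpifb9b (101, 69.0 and 536 CPM) were highest at P16. Aqp5 (36.7, 30.4 and 20.1 CPM) and Aqp4 (217, 164 and 66.9 CPM) were lowest there.

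Collagen transcripts were low in both populations apart from a few chains. Levels between genes are given as TPM, transcript abundance scaled for length and library total. Of the 44 genes, 18 had a mean of at least 1 TPM over the 7 libraries, 4 reached 10 TPM (Col9a2, Col1a1, Col1a2 and Col18a1) and 6 stayed under 0.1 TPM. Summed over all 44, collagen TPM was 68.7 at P2, 79.5 at P7 and 138 at P16 in mature neurons, and 322 at P3, 283 at P7, 248 at P9 and 293 at P16 in progenitors. Every progenitor library was above every mature neuron library.

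A single chain made up most of the progenitor sum. Col9a2 held 64.2%, 61.0%, 60.9% and 53.3% of collagen TPM in progenitors at P3, P7, P9 and P16, and 3.26%, 4.71% and 1.60% in the mature P2, P7 and P16 libraries. In mature neurons the leading family changed with the library: collagen IV held 33.9% at P2 and 34.1% at P7 and 4.04% at P16, where the collagen I chains held 70.0% after 9.42% and 19.5%. Without Col9a2 and the collagen I chains, the other 41 genes summed to 60.0, 60.2 and 39.1 TPM in mature neurons and 101, 82.5, 79.9 and 80.7 TPM in progenitors, and the groups still did not overlap.

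**Figure D1:**
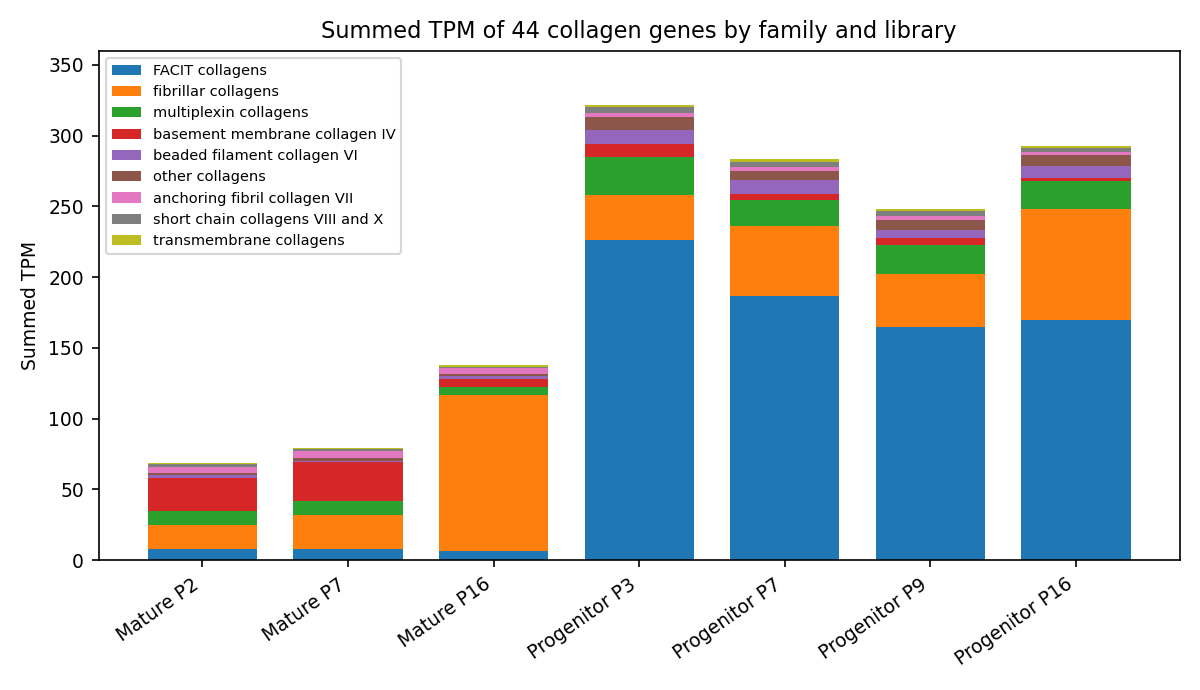
Summed TPM of the 44 collagen genes (vertical axis, from 0) in each of the 7 libraries, stacked by family. The FACIT segment fills 165 to 226 TPM of each progenitor bar and 6.16 to 8.14 TPM of each mature neuron bar, and the fibrillar segment reaches 110 TPM in the mature P16 bar.

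**Figure D2:**
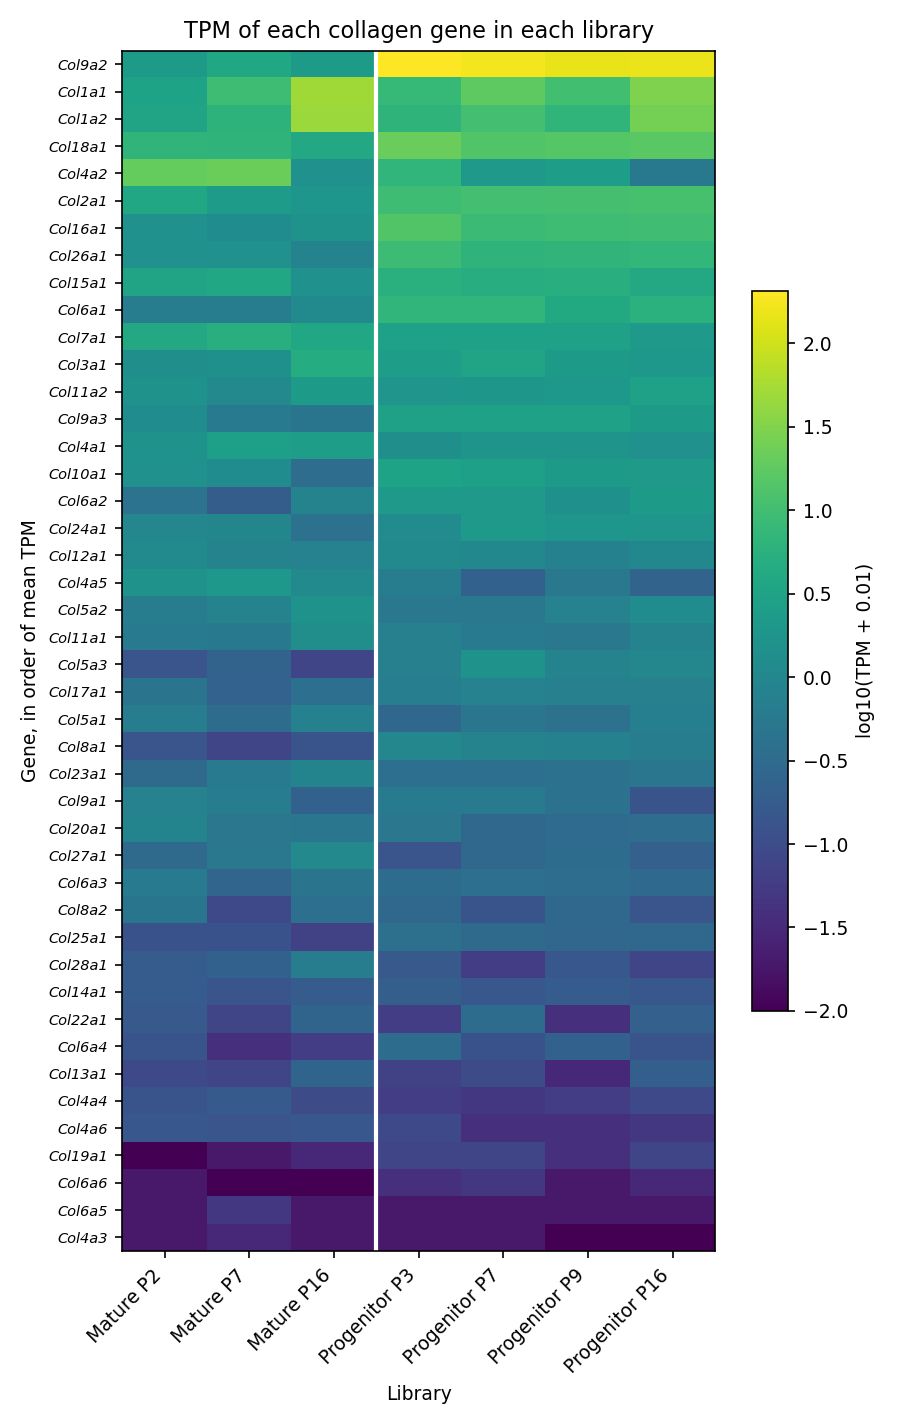
Level of each collagen gene (rows, in order of mean TPM) in each library (columns; mature neurons left of the white line), as log10 of TPM plus a small constant. Col9a2 is bright in all 4 progenitor columns and dim in the 3 mature neuron columns, Col1a1 and Col1a2 are brightest at P16, and Col4a2 is bright in mature neurons at P2 and P7.

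The first comparison asked which collagens distinguish mature neurons from their precursors. More collagens were lower in mature neurons than higher: of 36 with enough counts to test, 13 were lower (36.1%) and 6 higher (16.7%) by edgeR's quasi-likelihood test at a Benjamini-Hochberg adjusted p under 0.05, and 17 were not called. Among all 17975 tested genes, 30% were lower and 28.8% higher, and 58.8% were called in either direction against 52.8% of the collagens. By CPM, every mature library lay below every progenitor library for 14 of the 36 (32.2% of all genes) and above for 4 (29.2% of all genes). The median fold, mature neurons over progenitors on the log2 scale, was 0.13 over the 36 and 0.01 over all tested genes. DESeq2 called 13 lower (29.8% of all genes) and 5 higher (29.6%). The count of 6 higher was 2 on both TPM scales, tested with limma, and 3 without the progenitor P7 or the progenitor P9 library, where 11 to 14 were lower. In pooled bulk RNA, fewer cells of a type that makes a collagen and less RNA per cell cannot be told apart.

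Collagen IX, a FACIT type best known from the surface of cartilage fibrils, gave the largest difference of all the collagens tested. Col9a2 (chromosome 4, 121039385 to 121055322, plus strand) was at 2.24, 3.74 and 2.20 TPM in the mature P2, P7 and P16 libraries. In progenitors it was at 207, 173, 151 and 156 TPM at P3, P7, P9 and P16, so the lowest progenitor library was far above the highest mature one. Its fold was -5.26 ± 0.20 (log2, SE; edgeR adjusted p = 2.5e-06), 38.3 times lower in mature neurons. Col9a3, another chain of the heterotrimer, was at 1.25, 0.61 and 0.47 TPM in mature neurons and 2.95, 2.91, 2.91 and 2.27 TPM in progenitors, again without overlap (log2 fold -1.68 ± 0.28, edgeR adjusted p = 0.00106). Tcfl5, which shares exon sequence with Col9a3 on the opposite strand, was lower in the same libraries, at 0.30 to 1.01 CPM in mature neurons and 1.41 to 2.22 CPM in progenitors, and its part in the Col9a3 counts was not tested. Col9a1, the remaining chain, was at 0.81, 0.65 and 0.21 TPM and at 0.59, 0.56, 0.41 and 0.12 TPM, with overlapping groups and no call (0.41 ± 0.63, edgeR adjusted p = 0.596). The 3 chains were far from equal in progenitors: Col9a2 was 51.9 to 70.0 times as high as Col9a3 and 309 to 1301 times as high as Col9a1 in TPM.

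Other FACIT chains were called in both directions. Col16a1, which associates with small fibrils and cell surfaces, was at 1.54, 1.24 and 1.56 TPM in mature neurons and 14.1, 8.59, 9.34 and 9.69 TPM in progenitors. No mature library came near a progenitor library, and the log2 fold was -2.23 ± 0.33 (edgeR adjusted p = 5.74e-04). Col20a1, a little-studied FACIT member, was called higher in mature neurons (0.89 ± 0.24, edgeR adjusted p = 0.0134) from low levels of 0.49 to 0.89 TPM against 0.27 to 0.50 TPM, which overlapped in TPM but not in CPM. It lost the call in 3 of 15 alternatives, among them both TPM scales, tested with limma (adjusted p up to 0.164), and an annotated gene on the same strand shares part of its exons. Of the 9 FACIT genes, 8 were tested, 3 were called lower and 1 higher.

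Among fibrillar collagens the cartilage-type chain was lower in mature neurons. Col2a1 (chromosome 15, 97975602 to 98004695, minus strand), the chain of type II collagen, was at 3.84, 2.46 and 1.82 TPM in mature neurons and 9.30, 10.5, 11.2 and 11.3 TPM in progenitors. The groups did not overlap, and the fold was -1.81 ± 0.23 (edgeR adjusted p = 2.75e-04). Col11a1 and Col11a2, chains of type XI collagen, which joins type II in the same fibrils, were not called. Col11a1 was at 0.54 to 1.33 TPM in mature neurons and 0.52 to 0.85 TPM in progenitors, and Col11a2 at 1.07 to 2.24 and 1.79 to 2.94 TPM, both with overlapping groups.

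Of the chains of type V collagen, which sits inside type I fibrils and limits their width, Col5a3 was called lower and Col5a1 higher, the latter with overlapping groups. Col5a3 was at 0.13, 0.23 and 0.07 TPM in mature neurons and 0.75, 1.66, 0.83 and 0.97 TPM in progenitors. All mature libraries were below all progenitor libraries (log2 fold -2.76 ± 0.44, edgeR adjusted p = 8.87e-04). Col5a1 was called higher (1.04 ± 0.33, edgeR adjusted p = 0.0236), although its groups overlapped at 0.64, 0.32 and 0.79 TPM against 0.28, 0.49, 0.42 and 0.72 TPM. Its call was lost in 8 of 15 alternatives, among them both TPM scales (adjusted p up to 0.683) and leaving out mature P2 (0.058), mature P16 (0.0773), progenitor P7 (0.0619) or progenitor P9 (0.0634), and 2 genes on the opposite strand share exon sequence with it. One of them, 2810430I11Rik, was at 0.299 to 1.14 CPM in mature neurons and 0.039 to 0.296 CPM in progenitors, the same direction, and its part in the Col5a1 counts was not tested. Col5a2, the usual partner of Col5a1, was at 0.64 to 1.55 and 0.52 to 1.25 TPM and was not called (0.21 ± 0.52, edgeR adjusted p = 0.75).

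Col27a1, a fibrillar chain of cartilage, was at 0.30, 0.52 and 1.05 TPM in mature neurons and 0.13, 0.28, 0.33 and 0.20 TPM in progenitors. Its groups overlapped in TPM, but in CPM every mature library (1.48, 2.30 and 5.30) was above every progenitor library (0.56, 0.74, 0.92 and 0.68). The log2 fold was 2.06 ± 0.44 (edgeR adjusted p = 0.00392), and the call was lost on both TPM scales (adjusted p up to 0.102). Of the 11 fibrillar genes, all 11 were tested, 2 were called higher and 2 lower.

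The main chains of bone, skin and other connective tissue did not separate the populations. Col1a1 (chromosome 11, 94936224 to 94953042, plus strand) was at 3.17, 9.35 and 50.5 TPM in mature neurons and 7.79, 17.3, 10.2 and 30.2 TPM in progenitors. Its partner Col1a2 (chromosome 6, 4504814 to 4541544, plus strand) was at 3.30, 6.16 and 45.9 TPM and at 6.5, 10.6, 6.74 and 25.7 TPM. For both genes the mature libraries included the lowest and the highest of all 7. The log2 folds were 0.49 ± 0.85 for Col1a1 (edgeR adjusted p = 0.646) and 0.68 ± 0.90 for Col1a2 (edgeR adjusted p = 0.541). The sign rested on the mature P16 library: without it the folds were -1.5 (edgeR adjusted p = 0.0466) for Col1a1 and -1.44 (edgeR adjusted p = 0.0716) for Col1a2. Without both P16 libraries, an alternative chosen after seeing the data, they were -0.96 (edgeR adjusted p = 0.045) and -0.77 (edgeR adjusted p = 0.0639). On the TPM scales the folds were also negative, at -0.24 and -0.31 for Col1a1 and -0.035 and -0.090 for Col1a2. Col3a1, the type III chain, named after its values were seen, was at 1.41, 1.44 and 4.62 TPM and at 2.59, 3.31, 2.23 and 2.01 TPM, and was not called (0.53 ± 0.51, edgeR adjusted p = 0.391).

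Collagen VI, which forms beaded filaments around many cells, was lower in mature neurons for 2 of its 3 classical chains. Col6a1 (chromosome 10, 76708792 to 76726168, minus strand) was at 0.65, 0.67 and 1.15 TPM in mature neurons and 6.97, 7.04, 4.10 and 5.73 TPM in progenitors. The lowest progenitor library was above the highest mature one, with a log2 fold of -2.75 ± 0.29 (edgeR adjusted p = 1.06e-04). Its chromosomal neighbour Col6a2 was at 0.43, 0.18 and 0.85 TPM and at 2.14, 2.16, 1.45 and 2.25 TPM (-1.94 ± 0.45, edgeR adjusted p = 0.00571), also without overlap. Col6a3, the largest of these chains, was at 0.25 to 0.57 TPM in mature neurons and 0.29 to 0.36 TPM in progenitors and was not called (0.05 ± 0.44, edgeR adjusted p = 0.929). Col6a1 was 12.1 to 21.8 times as high as Col6a3 in progenitors and 1.14 to 2.68 times in mature neurons.

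The multiplexins were both called lower. Col18a1, whose end fragment is endostatin, was at 6.70, 6.36 and 4.07 TPM in mature neurons and 21.5, 13.9, 15 and 16.1 TPM in progenitors, with clear separation (-1.37 ± 0.20, edgeR adjusted p = 6.23e-04). Col15a1, its relative, was at 3.35, 3.89 and 1.53 TPM and at 5.46, 4.92, 5.35 and 3.96 TPM. The groups lay close without overlapping, at 3.89 and 3.96 TPM. The smaller fold of -0.73 ± 0.23 (edgeR adjusted p = 0.0251) lost its call in 7 of 15 alternatives, among them leaving out mature P7 (0.0707), mature P16 (0.0505), progenitor P3 (0.0583) or progenitor P9 (0.0563).

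Short-chain collagens form hexagonal networks, type VIII under endothelia and in the cornea and type X in cartilage that is turning to bone. Col8a1 was at 0.13, 0.07 and 0.12 TPM in mature neurons and 0.99, 0.84, 0.79 and 0.65 TPM in progenitors, with no overlap (-2.34 ± 0.32, edgeR adjusted p = 4.02e-04). Its partner Col8a2 was at 0.08 to 0.46 and 0.12 to 0.27 TPM and was not called (0.92 ± 0.47, edgeR adjusted p = 0.122). Col10a1 was at 1.51, 1.24 and 0.34 TPM and at 3.13, 2.68, 2.20 and 2.04 TPM, every mature library below every progenitor library. Its fold of -1.17 ± 0.43 (edgeR adjusted p = 0.0434) lost the call in 5 of 15 alternatives, when mature P7 (0.0772) or any 1 progenitor library was left out (0.0533 to 0.0957). The gene Nt5dc1 shares exon sequence with Col10a1 on the opposite strand; it was at 19.5 to 25.9 CPM in mature neurons and 10.2 to 13.1 CPM in progenitors, the other direction, and its part in the Col10a1 counts was not tested.

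Col26a1, a short secreted collagen of little known role, was at 1.52, 1.49 and 0.84 TPM in mature neurons and 9.17, 6.5, 6.55 and 7.15 TPM in progenitors. Again no libraries overlapped, and the log2 fold was -2.12 ± 0.29 (edgeR adjusted p = 3.83e-04). Col25a1, a transmembrane collagen made by neurons, was at 0.11, 0.11 and 0.06 TPM and at 0.38, 0.30, 0.26 and 0.27 TPM (-1.58 ± 0.35, edgeR adjusted p = 0.0049). Col17a1, the transmembrane collagen of epithelial hemidesmosomes, named after its values were seen, was at 0.22 to 0.45 TPM against 0.68 to 0.82 TPM. Its groups did not overlap, but it missed the threshold (-0.77 ± 0.31, edgeR adjusted p = 0.063). It passed in 3 of 15 alternatives, both TPM scales (limma adjusted p = 0.0216 and 0.0342) and leaving out mature P2 (edgeR adjusted p = 0.0439). Col7a1, the chain of anchoring fibrils, also named after its values were seen, was at 4.03, 5.19 and 3.76 TPM in mature neurons and 2.91, 2.92, 2.95 and 2.2 TPM in progenitors, and likewise missed it (0.56 ± 0.24, edgeR adjusted p = 0.0747). It passed in 4 of 15 alternatives, both TPM scales (limma adjusted p = 0.0376 and 0.0313), without mature P16 (edgeR adjusted p = 0.0121) and without both P16 libraries (edgeR adjusted p = 0.0156).

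**Figure D3:**
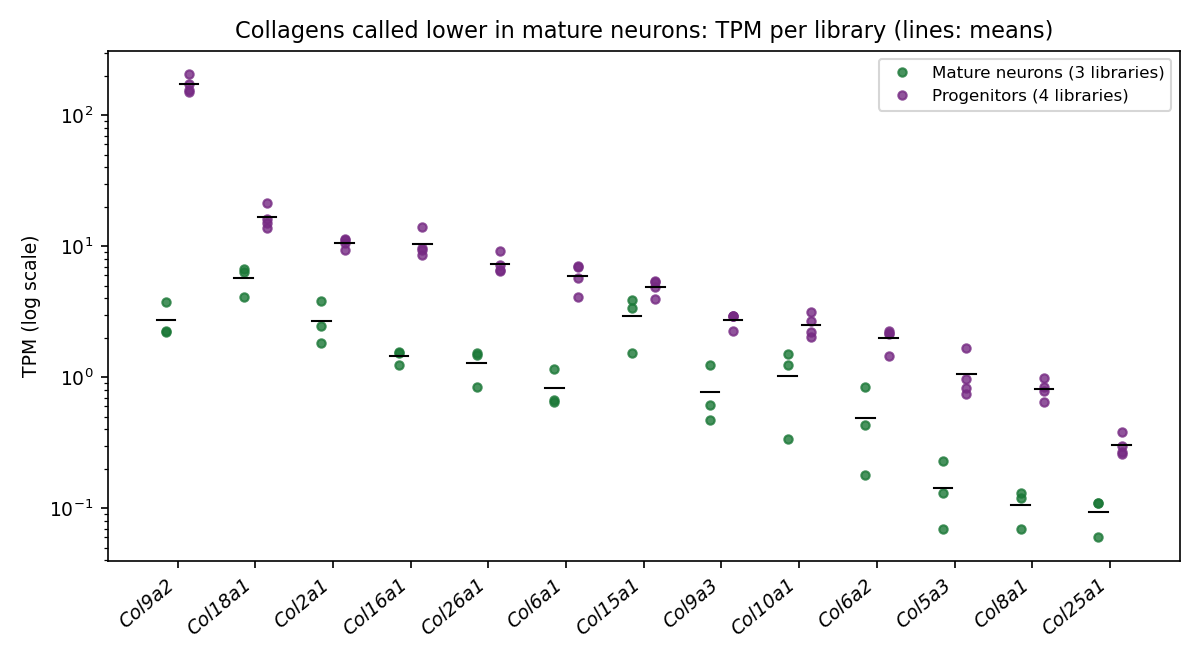
TPM of the 13 collagens called lower in mature neurons (log scale), 1 point per library, mature neurons left and progenitors right for each gene, with a line at each mean. For Col9a2 the means are 2.73 and 172 TPM, and for Col15a1, the closest pair, 2.92 and 4.92 TPM.

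Collagen IV was the family with the most calls towards mature neurons: 4 of its 6 genes were tested, 3 were called higher and 0 lower (0 also by DESeq2 and 0 at an unadjusted p under 0.05). Col4a5 (chromosome X, 141475385 to 141689234, plus strand), a chain of the kidney-type network, was at 1.55, 2.02 and 1.16 TPM in mature neurons and 0.64, 0.21, 0.52 and 0.23 TPM in progenitors. Every mature library was above every progenitor library, with a log2 fold of 2.11 ± 0.41 (edgeR adjusted p = 0.00231). Col4a4, which joins Col4a5 in that network, was barely detected at 0.12, 0.16 and 0.09 TPM against 0.05, 0.04, 0.05 and 0.08 TPM (1.06 ± 0.35, edgeR adjusted p = 0.0315). It lost its call in 7 of 13 alternatives, among them DESeq2 (adjusted p = 0.0879) and leaving out mature P7 (0.131), progenitor P3 (0.0672), progenitor P7 (0.0757) or progenitor P9 (0.0744). The remaining partner, Col4a3, was under the filter on low counts.

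Col4a1 and Col4a2 form the standard basement membrane trimer and are transcribed head to head on chromosome 8, with annotated starts 21 bases apart. Col4a2 was at 19.8, 22.1 and 1.51 TPM in mature neurons and 7.0, 2.08, 2.64 and 0.55 TPM in progenitors, so that the mature P16 library fell among the progenitors. Its fold, at 2.37 ± 0.93 the highest of the 36, missed the threshold (edgeR adjusted p = 0.0559). It passed in 6 of 15 alternatives, among them log2 day in the model (2.24, edgeR adjusted p = 0.0101), no filter on low counts (2.37, 0.045), leaving out the mature P16 library (2.90, 0.00589) or the progenitor P3 library (3.29, 0.0224) and leaving out both P16 libraries (2.56, 0.00266, an alternative chosen after seeing the data). Col4a1 was at 1.65, 2.70 and 2.66 TPM and at 1.39, 1.67, 1.73 and 1.54 TPM, overlapping at 1.65 and 1.73 TPM, and was called higher (0.84 ± 0.30, edgeR adjusted p = 0.0398). The call was lost in 7 of 15 alternatives, among them leaving out mature P2 (0.143), mature P7 (0.0812), progenitor P7 (0.0995), progenitor P9 (0.0901) or progenitor P16 (0.0909). The chains of this trimer were far from a fixed ratio: Col4a2 over Col4a1 in TPM was 12, 8.18 and 0.57 in the mature P2, P7 and P16 libraries and 5.04, 1.25, 1.53 and 0.36 in progenitors. By contrast, Col1a1 over Col1a2 stayed between 0.96 and 1.63 in all 7 libraries. As the strand setting of the counting is not given in the sources used here, reads where Col4a1 and Col4a2 overlap may have been left out or assigned to either.

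**Figure D4:**
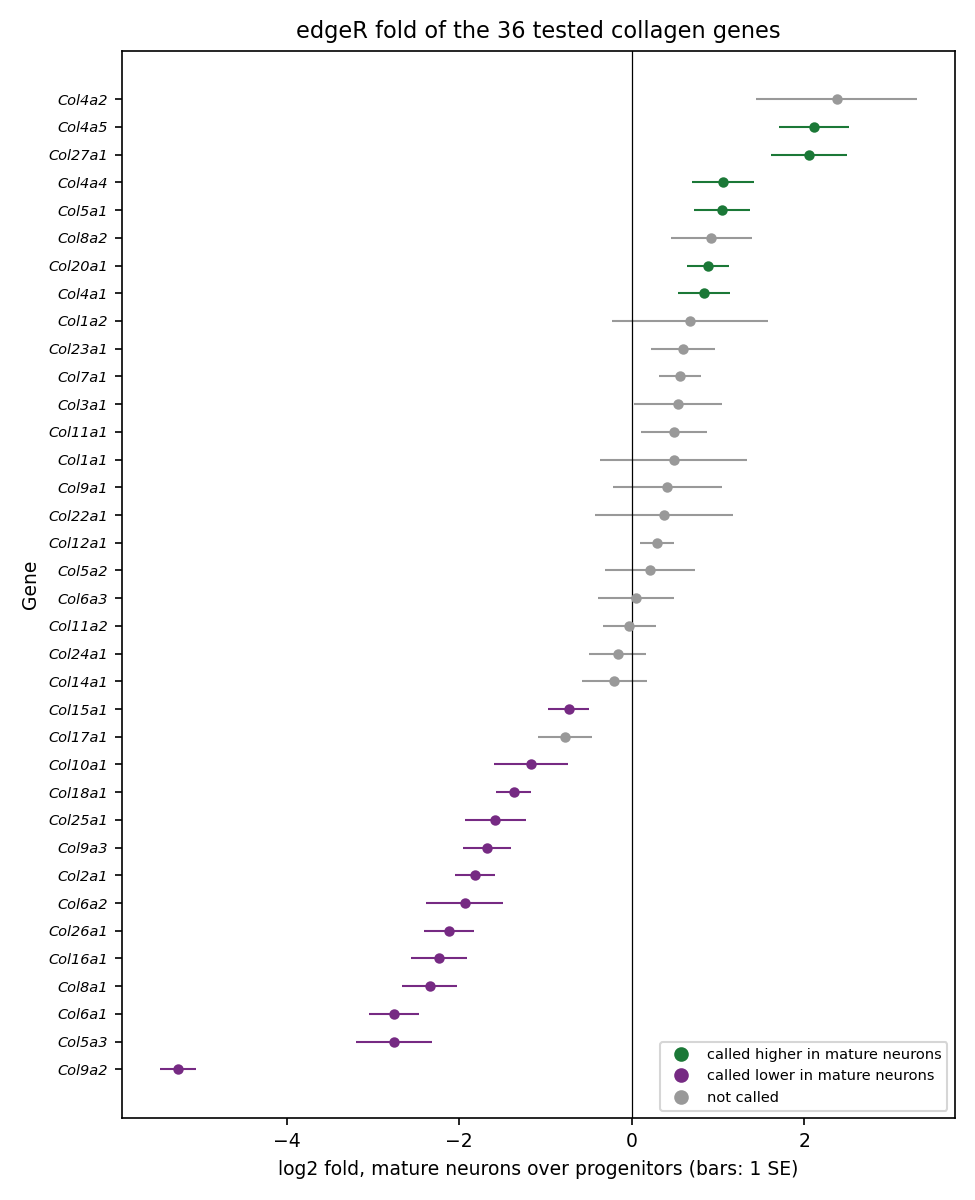
Log2 fold of mature neurons over progenitors (horizontal axis, with bars of 1 SE) for the 36 tested collagens, by edgeR. Col9a2 lies far to the left at -5.26, 13 genes are called lower (purple) and 6 higher (green), and Col4a2, at 2.37 with the widest bar, is not called.

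The second comparison asked whether collagen transcripts differed with postnatal age. No collagen passed the adjusted threshold by edgeR (0 of 36; 0% of all tested genes), with the slope taken as log2 units per doubling of postnatal day and shared by the populations. At an unadjusted p under 0.05, 12 of 36 had a slope (33.3%; 20.8% of all tested genes), 5 upward (9.64% of all) and 7 downward (11.2%). DESeq2 called 3 upward (3.6% of all) and 4 downward (4.75%; 8.34% in either direction), and a slope on the day itself gave 3 and 2 (6.25%). Leaving out the mature P7 library, edgeR called 3 upward and 2 downward. The share of all genes called in that fit is not given here, so these counts are not read as a trait of collagens. The median slope of the 36 was -0.01.

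The 2 chains of type I collagen had the steepest upward slopes among those at an unadjusted p under 0.05. In CPM, the scale of the test, Col1a1 was at 8.95, 18.6 and 137 in the mature P2, P7 and P16 libraries and at 19.3, 35.9, 25.4 and 75.5 in progenitors at P3, P7, P9 and P16. The P16 library was the highest of each population, 15.3 times the P2 value in mature neurons and 3.92 times the P3 value in progenitors. The slope was 1.08 ± 0.19 (edgeR adjusted p = 0.0586; DESeq2 adjusted p = 0.00123). Col1a2 followed the same order, at 10.3, 18.7 and 160 CPM and at 19.3, 33.6, 21.5 and 83.4 CPM (1.10 ± 0.21, edgeR adjusted p = 0.0617; DESeq2 adjusted p = 0.00482). Without both P16 libraries the slopes were 0.50 (edgeR adjusted p = 0.603) and 0.38 (0.683), an alternative chosen after seeing the data. Col5a2, a partner of type I fibrils, was at 1.86, 2.04 and 7.01 CPM and at 2.15, 2.06, 3.33 and 5.03 CPM (0.58 ± 0.14, edgeR adjusted p = 0.0844), also highest at P16 in both populations.

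Markers of erythroid cells and leukocytes were higher in the same libraries. Erythroid markers, 6 of 6 with a row and 5 of 5 tested with an upward slope at an unadjusted p under 0.05 (9.64% of all tested genes), summed to 35.1 to 292 CPM in mature neurons and 17.4 to 125 CPM in progenitors, with the highest value of each population at P16. Leukocyte markers, 6 of 10 with such a slope, summed to 23.6 to 110 and 7.45 to 24.3 CPM, also highest at P16. Of 12 cartilage and bone markers, 1 of 6 tested had such a slope: Ibsp, a protein of bone matrix, was at 1.56, 2.89 and 7.23 CPM and at 2.04, 2.49, 1.07 and 5.30 CPM. The whole cartilage and bone list summed to 22.0 to 24.9 CPM in mature neurons and 9.10 to 14.1 CPM in progenitors, and its members differed in direction. Cnmd, a cartilage gene that made up most of the mature sum at P2 and P7, was at 15.3, 14.4 and 7.91 CPM in mature neurons and 1.28 to 2.59 CPM in progenitors. The bone genes Bglap (0.084, 0.043 and 0.73 CPM; 0.037, 0.039, 0.15 and 0.53 CPM) and Sp7 (0.21, 0.26 and 0.77 CPM; 0.30, 0.62, 0.15 and 0.49 CPM) were highest at P16 in mature neurons, and Bglap also in progenitors. The bone gene Alpl was at 2.87, 1.70 and 2.78 CPM and at 6.38, 3.15, 2.85 and 2.55 CPM, lowest at P16 in progenitors. The defining cartilage genes Acan and Matn1 were at 0 counts in some libraries and under 1 CPM in all. Of 6 tested fibroblast markers, 0 had an upward slope at an unadjusted p under 0.05. A downward one was seen for 3, Fbln1, Pi16 and Scara5 (11.2% of all tested genes). The fibroblast list summed to 63.9 to 88.7 and 44.7 to 63.7 CPM, lowest at P16 in each population. Most of this was Dcn, at 51.3 to 73.0 CPM in mature neurons, whereas Lum, another member, was highest at P16 in each population, at 1.56, 1.15 and 5.0 CPM and at 1.59, 1.67, 0.92 and 2.89 CPM. The part of any of these cells in the collagen I levels was not tested.

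Of the 4 tested collagen IV chains, 2 had a downward slope at an unadjusted p under 0.05, Col4a2 and Col4a1, and neither passed edgeR's adjusted threshold. Col4a5 had a slope of -0.30 ± 0.17 (edgeR adjusted p = 0.342) and Col4a4 one of 0.15 ± 0.17 (edgeR adjusted p = 0.673). Col4a2 was at 82.5, 89.5 and 6.59 CPM in mature neurons and at 27.7, 6.95, 9.14 and 2.10 CPM in progenitors. P16 was the lowest library of each population, 12.5 times below P2 in mature neurons and 13.2 times below P3 in progenitors, and the slope was -1.16 ± 0.32 (edgeR adjusted p = 0.107; DESeq2 adjusted p = 0.0142). Without the mature P16 library it was -0.79 (edgeR adjusted p = 0.352). Summed pericyte and smooth muscle markers were lowest at P16 as well, at 180, 151 and 71.2 CPM in mature neurons and 174, 132, 142 and 70.3 CPM in progenitors. Of these markers, 2 of 8 tested had a downward slope at an unadjusted p under 0.05 (11.2% of all tested genes). Most of the sum was Rgs5, a pericyte marker, and members differed in direction. Pdgfrb was highest at P16 in mature neurons, at 5.11, 4.85 and 8.17 CPM. The slopes of Pdgfrb (0.23), Myh11 (0.46) and Abcc9 (0.18) were upward, none at an unadjusted p under 0.05, and those of the remaining tested members were downward. A lowest sum at P16 was not particular to this list. Sustentacular cell markers were also lowest there in each population (3566 CPM in the mature library, 1871 CPM in the progenitor library). Of these, 4 of 10 had a downward slope at an unadjusted p under 0.05 and 2 an upward one. The fibroblast list was lowest at P16 too, with 3 of 6 downward, whereas erythroid and leukocyte sums were highest there. The part of any of these cells in the Col4a2 levels was not tested. Col4a1 had a slope of -0.32 ± 0.09 in CPM (edgeR adjusted p = 0.107) but of 0.12 and 0.17 on the TPM scales, the opposite direction.

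Col9a1 had a slope of -0.72 ± 0.19 (edgeR adjusted p = 0.0968), from 1.77, 0.81 and 0.43 CPM in mature neurons and 1.07, 1.01, 0.78 and 0.15 CPM in progenitors. Smaller downward slopes at an unadjusted p under 0.05 were those of Col10a1 (-0.44), Col26a1 (-0.28), Col18a1 (-0.22) and Col15a1 (-0.22). Col27a1 had an upward slope of 0.48 ± 0.14 (edgeR adjusted p = 0.116), from 1.48, 2.30 and 5.30 CPM in mature neurons and 0.56 to 0.92 CPM in progenitors, and the difference of slopes between the populations was not called (0.45 ± 0.28, unadjusted p = 0.15). The remaining upward one was Col23a1, a transmembrane collagen, at 0.41 (named after its values were seen). Col9a2, the chain that differed most between the populations, had a slope of -0.10 ± 0.08 (edgeR adjusted p = 0.518).

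**Figure D5:**
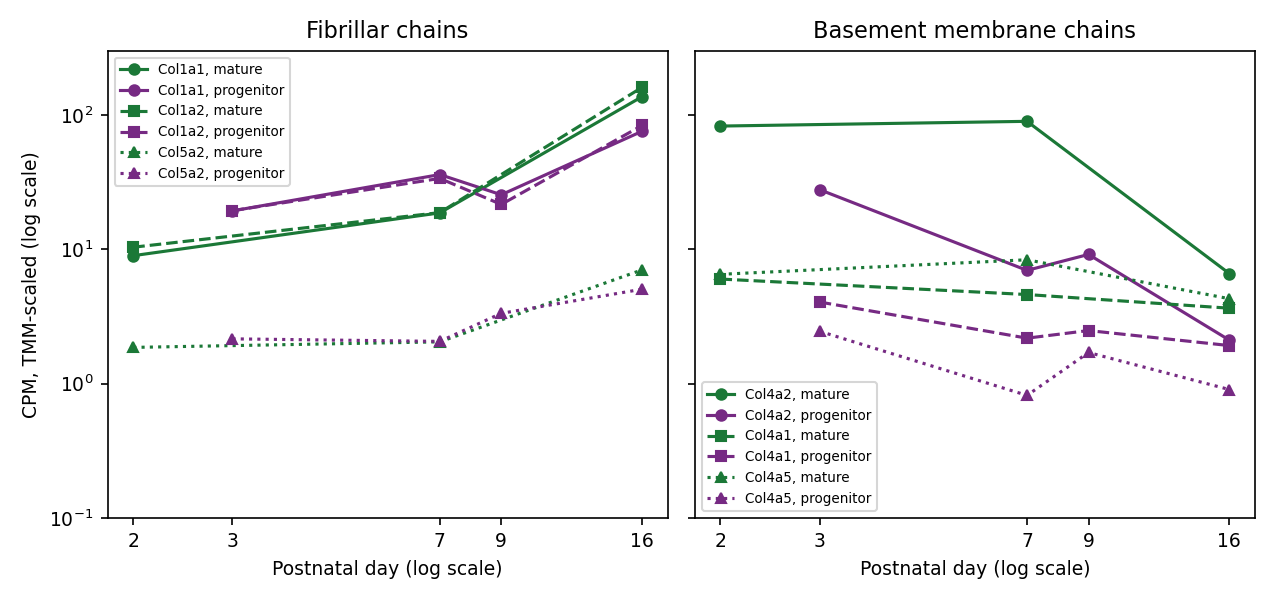
CPM (log scale) against postnatal day (log scale) for 3 fibrillar chains (left) and 3 basement membrane chains (right), mature neurons in green and progenitors in purple, 1 library per point with no replicate at an age. Col1a1 and Col1a2 are highest at P16 in both populations (137 and 160 CPM in mature neurons), and Col4a2 is lowest there (6.59 and 2.10 CPM).

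The third comparison asked whether the age slope differed between mature neurons and progenitors. No collagen passed by edgeR (0 of 36; 0% of all tested genes) or by DESeq2 (0 of 36; 0.0334%). At an unadjusted p under 0.05, 2 of 36 differed, a share near the 5.98% of all tested genes. Both had a lower slope in mature neurons (2.85% of all). The median difference went the other way, at 0.13 over the 36 and -0.003 over all tested genes. The 2 genes were Col2a1 (difference -0.45 ± 0.09, edgeR unadjusted p = 0.00125, edgeR adjusted p = 0.806) and Col24a1 (-0.59 ± 0.24, edgeR unadjusted p = 0.0452), a minor fibrillar chain named after its values were seen. For Col1a1 the difference was 0.54 ± 0.33 and for Col4a2 it was 0.47 ± 0.71, neither of them called.

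The machinery that makes, trims and binds collagen was read from lists of genes other than collagens. Against the 28.8% of all tested genes called higher and the 30% called lower, the short lists below are given as counts and values, and no list was tested against other genes. Of 19 tested genes for chain modification and folding, 6 were higher in mature neurons and 2 lower, with a median log2 fold of 0.18; the share higher was near that of all genes. Colgalt1, which adds galactose to collagen, was at 122 to 152 CPM in mature neurons and 48.7 to 56.3 CPM in progenitors (1.38 ± 0.09, edgeR adjusted p = 1.14e-05). Sec24d, a coat protein for export of large procollagen, had a fold of 1.24 and Tmem38b, an ion channel of the endoplasmic reticulum, one of 0.88. The lower genes were the prolyl hydroxylase family member P3h3 (-0.92) and the lysyl hydroxylase Plod3 (-0.39).

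Of 11 tested genes for procollagen processing and crosslinking, 0 were higher and 3 lower (DESeq2 called 1 higher, as did an unadjusted p under 0.05, and 3 lower). Bmp1, the protease that cuts off the end of procollagen, was at 2.30 to 2.66 CPM in mature neurons and 12.7 to 16.8 CPM in progenitors (-2.46 ± 0.17, edgeR adjusted p = 1.48e-05). Its relative Tll1 was at 0 to 0.21 CPM and 1.18 to 1.98 CPM (-3.94 ± 0.59), and Lox, which crosslinks collagen, had a fold of -0.88, whose call was lost in 5 of 15 alternatives, among them leaving out mature P2 (0.0572), mature P7 (0.0697), progenitor P3 (0.0655) or progenitor P16 (0.0572). Among 9 tested collagen receptors, 1 was higher and 3 lower, the latter a share near that of all genes. Adgrg1, an adhesion receptor for type III collagen, had a fold of -2.01, the kinase receptor Ddr1 -1.26 and the integrin subunit Itgb1 -0.74, while Mrc2, which takes up collagen fragments, had a fold of 1.75.

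Among 10 tested genes for collagen breakdown and its inhibitors, 3 were higher, a share near that of all genes, and 2 lower. The membrane protease gene Mmp16 (1.5), the inhibitor Timp2 (1.61) and the lysosomal protease gene Ctsk (1.74) were higher, and the gelatinase gene Mmp2 (-0.82) and the membrane protease gene Mmp14 (-0.93) were lower. Of 13 tested basement membrane partners, 2 were higher (Nid1 at 1.19 and Lama4 at 1.02) and 4 lower, led by Agrn (-1.19), Lama3 (-2.89) and Lama2 (-1.70), which encode agrin and laminin chains. Of 11 tested collagen-binding matrix proteins, Thbs2 (1.35), Dcn (0.78) and Thbs1 (1.38) were higher and Fn1, which encodes fibronectin, was lower (-2.07). All these folds passed edgeR's adjusted threshold, and no gene of the 6 lists passed it for the age slope, where no gene of the whole table did. The calls of Ctsk, Lama2 and Lama4 were lost on both TPM scales, that of Thbs1 without mature P2 (0.07), that of Lama2 without mature P7 (0.059) and that of Lama4 without any of 5 single libraries (mature P2 and P16, progenitor P3, P7 and P16; 0.0567 to 0.111).

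The other 8 collagens (Col28a1, Col6a4, Col13a1, Col4a6, Col19a1, Col6a6, Col6a5 and Col4a3) had at most 26 counts in any library and were left out of the tests by the filter on low counts. Their TPM was at most 0.63, reached by Col28a1 in the mature P16 library. Without that filter, edgeR called 8 of all 44 higher (15.9% of 32706 genes) and 14 lower (16.7%), and 3 of the 8 low genes were among them, named after their values were seen. Col4a6, a basement membrane chain, had 14, 13 and 10 counts in mature neurons and 7, 2, 2 and 4 in progenitors (edgeR adjusted p = 0.0131). Col28a1 had 7, 10 and 26 counts and 5, 3, 5 and 5 counts (edgeR adjusted p = 0.0203). Col19a1, a FACIT chain, had 0, 1 and 1 counts and 6, 6, 3 and 7 counts (edgeR adjusted p = 0.0249). The highest library of a gene, by TPM, was mature P16 for 10 of the 44 members, progenitor P3 for 13 and progenitor P9 for 0. The same shares over all genes are not given here, so these counts are not read as a trait of collagens.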

How the data were processed

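Per the labels' protocols, sorted cells were lysed in TRIzol and their RNA went into the TruSeq Stranded mRNA kit. Build mm10, RSEM, STAR 2.6.1c and bcl2fastq 2.18 appear in the submitters' processing notes. Which annotation release and strand setting were used, and how multi-mapping reads were treated, is not given in the sources used here. Whole-number read counts per gene were deposited by the authors, as was a separate table of TPM, expression normalized for length and library total. Entries of the count table that name no gene (23.53% to 27.22% of a library) were left out.

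The counts were tested with edgeR 4.0.16 (R 4.3.3; quasi-likelihood, TMM scaling, filterByExpr, Benjamini-Hochberg over all 17975 tested genes, 0.05) for population, for a slope on log2 postnatal day with population in the model, and for their interaction, which leave 5, 4 and 3 residual degrees of freedom. The fits were tested on simulated data. P-values measure only the spread between these libraries, since the labels do not say that they came from separate animals. Alternatives used DESeq2 1.42.0 and limma 3.58.1 on log2(TPM + 1) or log2(TPM + 0.1) with a mean of at least 0.1 TPM. Folds on the latter scales understate the change of low genes.

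Named collagens are all that were called, the 10 with the highest mean TPM and the other chains of their trimers. Of the other lists, up to 3 called genes with the smallest p in each direction are named. The members and lists were chosen with earlier results of these data known. Of the collagens, 10 overlap exons of an opposite-strand gene (GENCODE annotation), 5 of them called (Col10a1, Col15a1, Col4a1, Col5a1 and Col9a3), and their reads may be mixed. Protein sequences were not used here.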

Additional observations from a re-analysis of the deposited data

Results flagged for a closer look

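Among 29 named collagens in the 4 progenitor libraries, 3 had a library far from the others, with a gap to the nearest other library, as a share of the range, above Dixon's critical value for 4 samples. Chance flags about 1 in 20 groups. Col18a1 was at 64.4 CPM at P3 and 41.3 to 45 CPM in the other progenitor libraries. Col26a1 was at 14.5 CPM at P3 and 8.62 to 9.28 CPM in the others. Col6a2 was at 3.44 CPM at P9 and 5.05 to 5.37 CPM in the others. P3 is the youngest progenitor age and has 1 library.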

How the results depend on the processing

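Of the 19 collagens called between the populations, 12 kept call and direction in all 15 alternatives, 7 lost the call in at least 1 and 0 reversed, and of 26 named pathway genes 21 kept theirs. The number called higher was 6, and 2 on both TPM scales, where the median over all genes also shifted (-0.08 and -0.13, against 0.01). Leaving out 1 library at a time gave 3 to 8 higher and 11 to 14 lower, with 3 higher without progenitor P7 or progenitor P9. A block for postnatal day, a pairing possible for P7 and P16 only, gave 5 higher and 12 lower of 35 tested; Col15a1, Col20a1, Col4a4, Col5a1 and Lox were not called with it, and Col4a2 was (2.89, edgeR adjusted p = 0.00187). These ages do not mark shared animals or litters in the labels. For the age slope, where 0 were called in each direction, DESeq2 called 3 upward and 4 downward, no filter on low counts 3 and 1, the day in place of its log2 3 and 2, and leaving out 1 library 0 to 3 and 0 to 2. Shares of all genes are not given here for the slope fits without the filter or with 1 library left out. The cause of these differences was not tested. The difference of slopes had 0 calls in every alternative run.

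The reversed population folds below belong to genes not called in the fit reported, but Col1a1 was called lower without mature P16 (edgeR adjusted p = 0.0466) and without both P16 libraries (edgeR adjusted p = 0.045). With 1 library left out at a time these folds ranged from -0.066 to 0.80 for Col11a1, from -0.49 to 0.25 for Col11a2, from -1.5 to 1.02 for Col1a1, from -1.44 to 1.34 for Col1a2, from -0.29 to 0.94 for Col3a1, from -0.69 to 0.53 for Col5a2, from -0.16 to 0.40 for Col6a3 and from -0.28 to 0.78 for Col9a1. Without mature P16 the folds were -0.066 for Col11a1, -1.5 for Col1a1, -1.44 for Col1a2, -0.29 for Col3a1, -0.69 for Col5a2 and -0.16 for Col6a3. Without both P16 libraries they were -0.96 for Col1a1, -0.77 for Col1a2, -0.16 for Col3a1, -0.36 for Col5a2 and -0.14 for Col6a3. On the TPM scales they were -0.24 and -0.31 for Col1a1, -0.035 and -0.090 for Col1a2, and -0.13 and -0.22 for Col3a1, and the slope of Col4a1 was 0.12 and 0.17. Without mature P2 the fold was 0.06 for Col11a2, -0.15 for Col6a3 and -0.28 for Col9a1. For Col11a2 it was 0.25 without mature P7 and 0.02 without progenitor P16. For Col6a3 it was -0.16 without progenitor P9 and -0.22 with the block for day. The cause was not tested. With no filter on low counts, all 44 were tested and 8 were higher and 14 lower; of the 8 under the filter, 5 were not called at this depth.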

Other observations

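Among the 11 tested collagen-binding matrix proteins, 2 had an upward and 1 a downward age slope at an unadjusted p under 0.05 (9.64% and 11.2% of all tested genes), named after their values were seen. Sparc, which encodes a collagen-binding protein of bone, was at 9.92, 10.3 and 68.5 CPM in the mature P2, P7 and P16 libraries and at 8.86, 13.3, 9.58 and 32.8 CPM in progenitors at P3, P7, P9 and P16 (slope 0.84 ± 0.19, edgeR adjusted p = 0.0768). Postn, which encodes the matrix protein periostin, was at 1.98, 1.28 and 7.96 CPM and at 0.82, 1.09, 0.55 and 2.78 CPM (0.67 ± 0.23, edgeR adjusted p = 0.16). Thbs1, which encodes thrombospondin, went the other way, at 80.2, 57.0 and 28.4 CPM and at 34.2, 19.3, 19.2 and 12.1 CPM (-0.53 ± 0.06, edgeR adjusted p = 0.0586). None passed the threshold.

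The summed markers of 4 further cell types did not overlap between the populations. Sustentacular cell markers summed to 3566 to 4031 CPM in mature neurons and 1871 to 2801 CPM in progenitors (5 of 10 higher, 0 lower, against 28.8% and 30% of all tested genes). Horizontal basal cell markers summed to 192 to 245 and 167 to 180 CPM (2 of 10 higher, 0 lower). Most of each sum was Dst, one of the higher genes, at 149 to 214 CPM against 129 to 141 CPM. The other higher gene was Cav1, at 1.06 to 1.81 and 0.31 to 0.89 CPM. Itga6, the member with the next highest level, was at 8.51 to 14.1 and 12.5 to 17.9 CPM and was not called (edgeR adjusted p = 0.13). Olfactory ensheathing glia markers summed to 95.7 to 113 and 122 to 144 CPM (5 of 9 higher, 1 lower), and endothelial markers to 10.1 to 12 and 13.2 to 14.3 CPM (1 of 5 higher, 1 lower).

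The deposited counts and TPM values gave different orders for Col4a1. In the mature P2, P7 and P16 libraries it was at 5.99, 4.59 and 3.64 CPM, highest at P2, and at 1.65, 2.70 and 2.66 TPM, lowest at P2.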
